A study of Mus musculus with 12 samples.

Results

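The gene Ctse, which encodes cathepsin E, was described together with 9 further cathepsin genes, Ctsa, Ctsb, Ctsc, Ctsd, Ctsf, Ctsh, Ctsl, Ctss and Ctsz, in sorted hematopoietic stem cells (HSCs). These 10 genes were listed by name, out of 49585 genes in the count tables. Ctse was chosen because its counts differed between the genotypes of these same samples, so its difference is given as a description without a test, and the other 9 were chosen as lysosomal cathepsins to set beside it.

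Cathepsins are proteases made as inactive precursors that are sorted to endosomes and lysosomes and activated there at acidic pH. Most belong to the papain-like cysteine proteases (Ctsb, Ctsc, Ctsf, Ctsh, Ctsl, Ctss and Ctsz), while Ctsd and Ctse are aspartic proteases and Ctsa is a serine carboxypeptidase. Ctsd is found in lysosomes of nearly all cells, whereas cathepsin E is an intracellular endosomal enzyme known mainly from immune, gastric and blood cells. Paraoxonase 2, the product of Pon2, is an intracellular antioxidant enzyme.

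RNA was measured with Smart-seq2, which amplifies full-length cDNA from few cells, in 6 WT and 6 Pon2-/- mice of 10 to 14 weeks. Mice of both genotypes are labelled as strain C57BL/6J. The Pon2-/- mice carry a gene trap with a loxP-flanked β-geo cassette in an intron of Pon2 in the whole animal, whether they were littermates of the WT mice is not given in the sources used here, and no mouse was treated. The sorted cells were negative for lineage markers and CD135 and positive for Sca1, ckit and CD150, a gate that the labels call LT-HSCs and the methods describe as holding some MPP2 cells too, and 8 wells of 10 cells went into each mouse.

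Counts on genes reached 12967791 to 24228280 per WT mouse (median 17601783) and 14671353 to 23122382 per Pon2-/- mouse (median 18029073). Levels are given as CPM, counts per 1000000 counts of a library scaled by the TMM method. Pon2 itself was at 56.4 to 202 CPM in WT mice (113 ± 49.3, SD, n = 6) and at 1.16 to 33.1 CPM in Pon2-/- mice (25.7 ± 12.2, SD, n = 6), and the ranges did not overlap (two-sided exact permutation test, p = 0.00216, the smallest that 6 against 6 samples allow). Over all genes its log2 fold change of -2.13 (SE 0.57) had an adjusted p of 0.586 with edgeR and 0.0104 with DESeq2. The 12 HSC marker genes, among them Kit, Ly6a and Mecom, were detected in both genotypes, and their sum was 2291 to 2937 CPM in WT and 2204 to 2818 CPM in Pon2-/- mice. A list of 3 further markers held genes that the gate does not select for. Of these, Flt3 encodes CD135, for which the cells were sorted negative. Flt3 was at 4.59 to 49.3 CPM in WT and 26.7 to 65.0 CPM in Pon2-/- mice (log2 fold change 0.62, SE 0.49). Cd48, also listed, is carried by MPP2 cells, which the gate can hold, and not by LT-HSCs. It was at 1.02 to 72.1 CPM in WT and 61.3 to 205 CPM in Pon2-/- mice (log2 fold change 1.68, SE 0.62). Neither edgeR nor DESeq2 called it (DESeq2 adjusted p = 0.205). By its means, Cd48 made up most of the list's sum of 27.2 to 109 CPM in WT and 88.0 to 268 CPM in Pon2-/- mice. The means of Cd48 and Flt3 moved in the direction of that of Ctse, and their part in the values of Ctse was not tested. Markers of mature neutrophils, such as S100a8 and S100a9, varied far more, with sums of 1.35 to 11164 CPM in WT and 68.6 to 17332 CPM in Pon2-/- mice, although the gate excludes lineage-positive cells. B cell markers summed to 10437 CPM in Pon2-/- replicate 3, nearly all of it Ighm, and to between 25.5 and 712 CPM in the other 11 mice. Macrophage and monocyte markers summed to 615 to 1776 CPM in WT and 457 to 2539 CPM in Pon2-/- mice. Erythroid markers summed to 9.16 to 61.8 and 16.4 to 47.0 CPM. Among them Hbb-bt was at 25.5 ± 13.2 CPM in WT and 0.193 ± 0.449 CPM in Pon2-/- mice (SD, n = 6). Klf1 went the other way, with means of 0.544 and 6.73 CPM. The part of these lists in the values of Ctse was not tested. As these are bulk samples, fewer cells of a type and less RNA per cell cannot be told apart.

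Cathepsin genes resemble each other, and the sequences below show how far the reads of close relatives can be told apart. Over the best matching stretch of 90 coding bases, Ctse and Ctsd, the aspartic pair, shared 68 bases (75.6%) and no identical run longer than 12 bases. In the following stretches, read 5′ to 3′ from the GENCODE M21 transcripts on GRCm38, capitals mark the bases that differ within the pair. Both cover coding bases 217 to 306 and end on the codons around the first active-site aspartate. The Ctse stretch lies on the plus strand in exons 3 and 4, within chr1:131662758-131663388, and that of Ctsd on the minus strand in exons 2 and 3, within chr7:142383464-142385470.
Ctse: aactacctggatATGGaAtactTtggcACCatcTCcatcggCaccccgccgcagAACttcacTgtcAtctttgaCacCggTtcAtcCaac
Ctsd: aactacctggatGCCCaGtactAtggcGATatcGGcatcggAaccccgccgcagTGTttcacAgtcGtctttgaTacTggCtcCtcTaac

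The cysteine proteases Ctsl and Ctss shared 64 of 90 bases (71.1%) over their best stretch, with no identical run longer than 8 bases. It begins right after the codon of the catalytic cysteine and lies in exon 5 of each gene, at chr13:64366985-64367074 on the minus strand for Ctsl and at chr3:95545351-95545440 on the plus strand for Ctss.
Ctsl: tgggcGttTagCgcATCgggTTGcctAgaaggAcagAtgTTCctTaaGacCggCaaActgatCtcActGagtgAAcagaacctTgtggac
Ctss: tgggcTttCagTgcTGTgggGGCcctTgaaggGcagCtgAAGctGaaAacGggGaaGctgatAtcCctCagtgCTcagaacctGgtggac

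None of the 3167 windows of 50 bases in Ctse transcripts occurred in a transcript of another gene, and the same was true of Ctsf, Ctss and Ctsz. For other members the overlap came mostly from neighbouring gene models. Of the exon bases of Ctsd, 34.4% are shared with Gm49369, a gene model on the same strand, and 12.8% of those of Ctsb with Fdft1 on the opposite strand. Ctsa shares 10.5% with Pltp and 6.87% with Neurl2. The counts carry no strand, so reads in these shared bases cannot be assigned to 1 gene, and the levels of Ctsa, Ctsb and Ctsd are uncertain to that extent. Ctsl shares 26.8% with Gm47123 on the opposite strand, which is not among the genes counted, so that reads there were not ambiguous in the counting, and reads of either strand fall to Ctsl. Exons of Ctse overlap with no other gene.

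Ctse (ENSMUSG00000004552.16) is encoded on the plus strand at chr1:131638306-131675505 (GRCm38). In WT mice 1 to 6 its level was 95.1, 9.50, 19.2, 13.9, 43.8 and 43.3 CPM, a mean of 37.5 ± 31.8 (SD, n = 6) from 4384 counts in all. In Pon2-/- mice 1 to 6 it was 829, 611, 349, 444, 406 and 638 CPM, a mean of 546 ± 180 (SD, n = 6) from 59971 counts. All 6 Pon2-/- mice lay above all 6 WT mice, and the lowest Pon2-/- mouse was 3.67-fold above the highest WT mouse. The fitted log2 fold change was 3.86 (SE 0.52), a 14.6-fold higher level in Pon2-/- HSCs.

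The spread of Ctse differed in size between the genotypes. WT mice spanned a 10.0-fold range with an SD of 1.23 on the log2 scale, and Pon2-/- mice a 2.37-fold range with an SD of 0.47. WT replicate 1 held the highest WT level, and without it the log2 fold change was 4.39.

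Per kilobase of exon, the scale on which genes can be set side by side, Ctse was at 11.8 ± 10.0 CPM in WT and at 172 ± 56.6 CPM in Pon2-/- mice (SD, n = 6). Among the 11848 genes that passed the filter on low counts, it ranked between 2253 and 8198 in WT mice and between 206 and 602 in Pon2-/- mice. Among the 10 cathepsins its rank was 5 to 10 in the WT mice, last in 3 of them, and 1 in every Pon2-/- mouse.

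**Figure D1:**
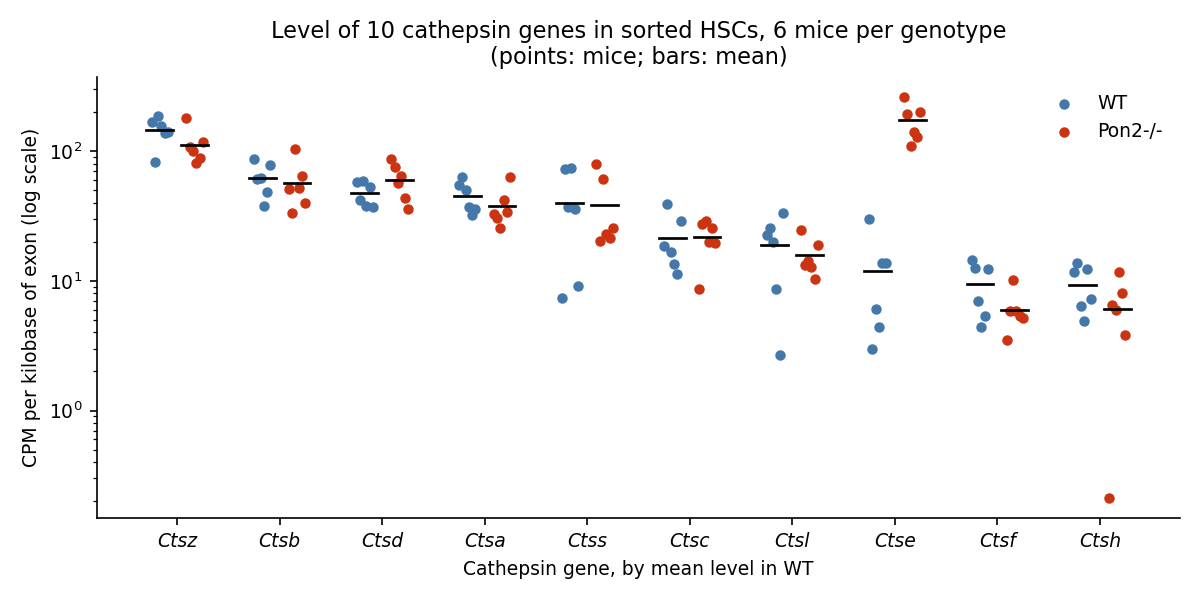
Levels of the 10 cathepsin genes as CPM per kilobase of exon (log axis), 1 point per mouse, WT in blue and Pon2-/- in red, with bars at the means of 6 mice. Ctse moves from 11.8 CPM per kilobase in WT to 172 in Pon2-/- mice without overlap, and the points of the genotypes overlap for each of the other 9 genes.

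All 10 genes passed the filter. With edgeR's quasi-likelihood test with thresholds of 0.05 on the FDR and 1 on the size of the log2 fold change, 1 of the 10, Ctse, was called, and 0.203% of all tested genes were called. In the direction of higher levels in Pon2-/- mice, 0.127% of tested genes were called, and in the opposite direction, with 0 of the 10, 0.076%. DESeq2 also called 1 of the 10, beside 1.77% of the genes it tested. The CPM ranges of the genotypes did not overlap for 1 of the 10 and for 0.633% of all tested genes, and with the higher range in Pon2-/- mice for 1 of the 10 and 0.388%. Since Ctse was picked by this contrast, nothing is read from these counts. Of the 15 genes called higher, 1, Ctse, is protein coding, and of the 9 called lower, 6 are.

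In WT mice the 3 libraries richest in neutrophil markers had the lowest levels of Ctse. WT replicates 2, 3 and 4, with 9.50, 19.2 and 13.9 CPM of Ctse, had neutrophil marker sums of 11164, 8120 and 9312 CPM, and WT replicates 1, 5 and 6, with at least 43.3 CPM, had sums of 122, 2225 and 1.35 CPM. Pon2-/- replicate 1, with the largest sum of all, 17332 CPM, also held the most Ctse. The 10 neutrophil markers were each detected in at least 1 WT mouse. Elane had counts in only 1 WT mouse, 139 in all, and was at 0 in all Pon2-/- mice. Without the 3 WT and 2 Pon2-/- libraries that had over 5000 CPM of neutrophil or over 1000 CPM of B cell markers, a choice made after seeing the data, the log2 fold change of Ctse was 3.11 (SE 0.36) with 3 WT and 4 Pon2-/- mice, and Ctse was not called. That fit called 4 genes in all. The part of these markers in the level of Ctse was not tested.

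**Figure D2:**
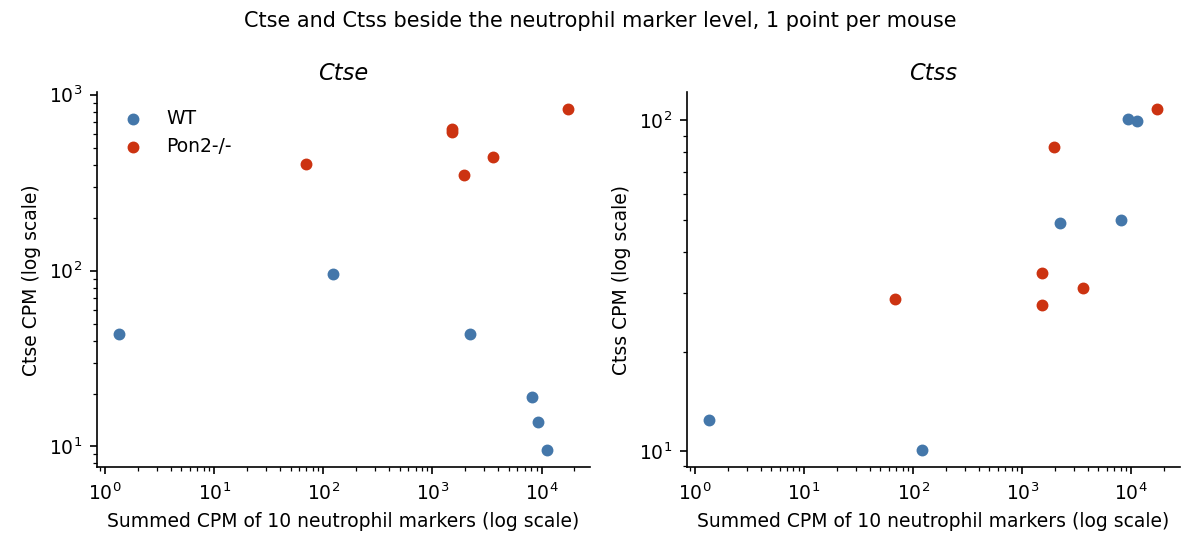
CPM of Ctse (left) and Ctss (right) against the summed CPM of 10 neutrophil markers, both axes logarithmic, 1 point per mouse, WT in blue and Pon2-/- in red. The 3 WT mice with the lowest Ctse, 9.50 to 19.2 CPM, have the largest WT marker sums, and Ctss is at 10.1 and 12.5 CPM in the 2 WT mice with the lowest sums.

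The other aspartic protease, Ctsd, a main lysosomal endoprotease, was at 87.0 to 137 CPM in WT (median 111) and at 83.5 to 203 CPM in Pon2-/- mice (median 142). The ranges overlapped, and the log2 fold change was 0.34 (SE 0.23). Napsa, which encodes the related aspartic protease napsin A and is not among the 10, was at 188 ± 28.7 CPM in WT and 186 ± 31.4 CPM in Pon2-/- mice (SD, n = 6), a log2 fold change of -0.02 (SE 0.16). For both relatives the ranges of the genotypes overlapped.

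Among the endopeptidases and exopeptidases of the papain family, Ctsb, the most abundant by CPM, was at 229 to 526 CPM in WT (median 370) and at 202 to 622 CPM in Pon2-/- mice (median 309). Its log2 fold change was -0.13 (SE 0.27). Ctsz, a carboxypeptidase, was at 118 to 269 CPM in WT (median 213) and at 117 to 258 CPM in Pon2-/- mice (median 150), with a log2 fold change of -0.37 (SE 0.23). The ranges of the genotypes overlapped for both genes.

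Ctsl, an endopeptidase, ranged widely among WT mice, from 17.4 CPM in replicate 5 to 216 CPM in replicate 6 (median 138), and from 67.2 to 160 CPM in Pon2-/- mice (median 88.5). The log2 fold change was -0.26 (SE 0.45). Ctsc, a dipeptidyl peptidase that activates granule proteases, was at 65.5 to 225 CPM in WT (median 102) and at 50.4 to 167 CPM in Pon2-/- mice (median 132), with a log2 fold change of 0.03 (SE 0.34). The Pon2-/- range of Ctsl lay inside that of WT, and Ctsc had nearly the same mean in both genotypes, 123 and 126 CPM.

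Ctsf, an endopeptidase, was at 22.3 to 73.5 CPM in WT (median 48.4) and at 17.5 to 51.0 CPM in Pon2-/- mice (median 28.1), a log2 fold change of -0.66 (SE 0.41). Ctsh, an aminopeptidase, was at 21.9 to 61.3 CPM in WT (median 42.3) and at 0.956 to 52.6 CPM in Pon2-/- mice (median 28.1), a log2 fold change of -0.63 (SE 0.65). Pon2-/- replicate 1, the mouse with the most Ctse, held the lowest value of both genes, and for Ctsh the 5 other Pon2-/- mice were at 17.1 CPM or more. These fold changes were the most negative of the 10 genes, and the genotypes overlapped for both.

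Ctss, an endopeptidase that trims the invariant chain of MHC class II, was at 10.1 to 101 CPM in WT (median 49.4) and at 27.7 to 108 CPM in Pon2-/- mice (median 32.8). The log2 fold change was -0.03 with an SE of 0.59, so that a difference of the size of this SE in either direction lies within its error. WT replicates 2, 3, 4 and 5, which had the 4 largest neutrophil marker sums among WT mice, were at 99.3, 49.9, 101 and 48.8 CPM, and WT replicates 1 and 6 were at 10.1 and 12.5 CPM. Pon2-/- replicate 1, with the largest sum, also had the most Ctss. The part of those markers in the level of Ctss was not tested.

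Ctsa, the serine carboxypeptidase that also protects lysosomal β-galactosidase and neuraminidase, was at 152 to 296 CPM in WT (median 205) and at 121 to 295 CPM in Pon2-/- mice (median 157). Its log2 fold change was -0.26 (SE 0.24). Across the 9 genes without Ctse, fold changes ran from -0.66 to 0.34 with a median of -0.26. In the fit of all mice, 2 of these were positive and 7 negative, and none exceeded 1.63 times its SE. EdgeR and DESeq2 called 0 of the 9, with 0 at an unadjusted edgeR p under 0.05 beside 3.13% of all tested genes. With samples left out some ratios to the SE were larger, as for Ctsz without the libraries rich in neutrophil or B cell markers (-0.59, SE 0.21). Over all tested genes the median log2 fold change was -0.01 and 49.2% were positive.

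**Figure D3:**
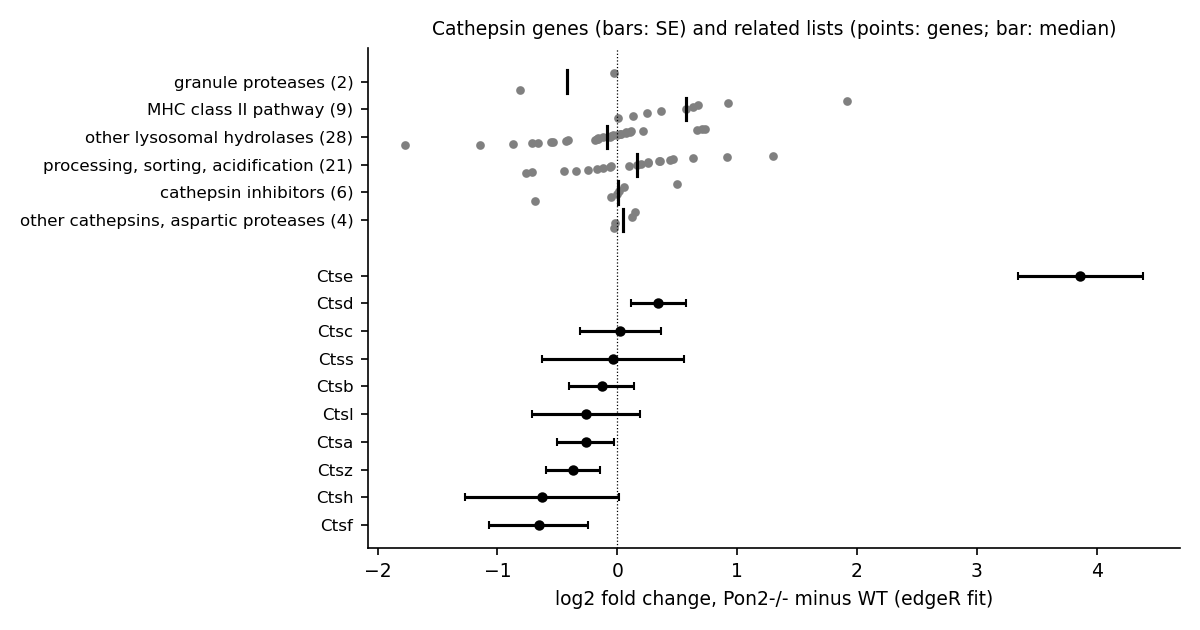
Log2 fold changes, Pon2-/- minus WT, from the edgeR fit. The lower rows give the 10 cathepsin genes with their standard errors, and the upper rows give each tested gene of 6 related lists as a point with the list's median as a bar. Ctse lies at 3.86, and the other 9 cathepsins lie between -0.66 and 0.34.

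The make-up of the cathepsin transcripts was read from CPM per kilobase. In WT mice Ctsz came first with 145 ± 35.6 CPM per kilobase (SD, n = 6), followed by Ctsb with 62.4, Ctsd with 47.5, Ctsa with 45.3, Ctss with 39.4, Ctsc with 21.3, Ctsl with 18.8, Ctse with 11.8, Ctsf with 9.37 and Ctsh with 9.35. Only the step from Ctsz to Ctsb exceeded its spread within mice, with Ctsz higher in 6 of 6 mice by 1.22 on the log2 scale (SD 0.59). The other neighbours in this order did not differ beyond their spread. With the length of the longest transcript in place of all exon bases, Ctsc was at 38.3, Ctsf at 22.6, Ctsh at 15.3 and Ctse at 17.6 CPM per kilobase, and Ctsf moved from place 9 to place 7 and Ctse from 8 to 9.

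In Pon2-/- mice Ctse came first with 172 ± 56.6 CPM per kilobase (SD, n = 6), followed by Ctsz with 112, Ctsd with 60.3, Ctsb with 57.0, Ctss with 38.5, Ctsa with 37.8, Ctsc with 21.6, Ctsl with 15.7, Ctsh with 6.05 and Ctsf with 5.95. Ctse was above Ctsz in 6 of 6 mice by 0.61 on the log2 scale (SD 0.27), and Ctsz was above Ctsd in 6 of 6 by 0.91 (SD 0.49). The remaining neighbours did not differ beyond their spread. Apart from Ctse, the order of the first 3 genes in WT, Ctsz, Ctsb and Ctsd, held in Pon2-/- mice except that Ctsb and Ctsd, which were within their spread in both genotypes, changed places.

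Ctse made up 2.83% ± 2.17 of the summed CPM per kilobase of the 10 genes in WT (0.725% to 6.38%) and 32.3% ± 6.36 in Pon2-/- mice (21.3% to 38.0%; SD, n = 6). Ctsz made up 19.8% to 41.5% in WT and 18.0% to 24.6% in Pon2-/- mice. The 9 genes without Ctse summed to 398 ± 40.6 CPM per kilobase in WT (339 to 443) and 355 ± 65.9 in Pon2-/- mice (300 to 465), and with Ctse the sums were 410 ± 43.8 and 527 ± 106. The sums without Ctse overlapped, but their median was 396 in WT and 324 in Pon2-/- mice, below the lowest WT sum. The smaller shares of the other genes thus went with a larger total and, at the median, with a lower sum of the 9.

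**Figure D4:**
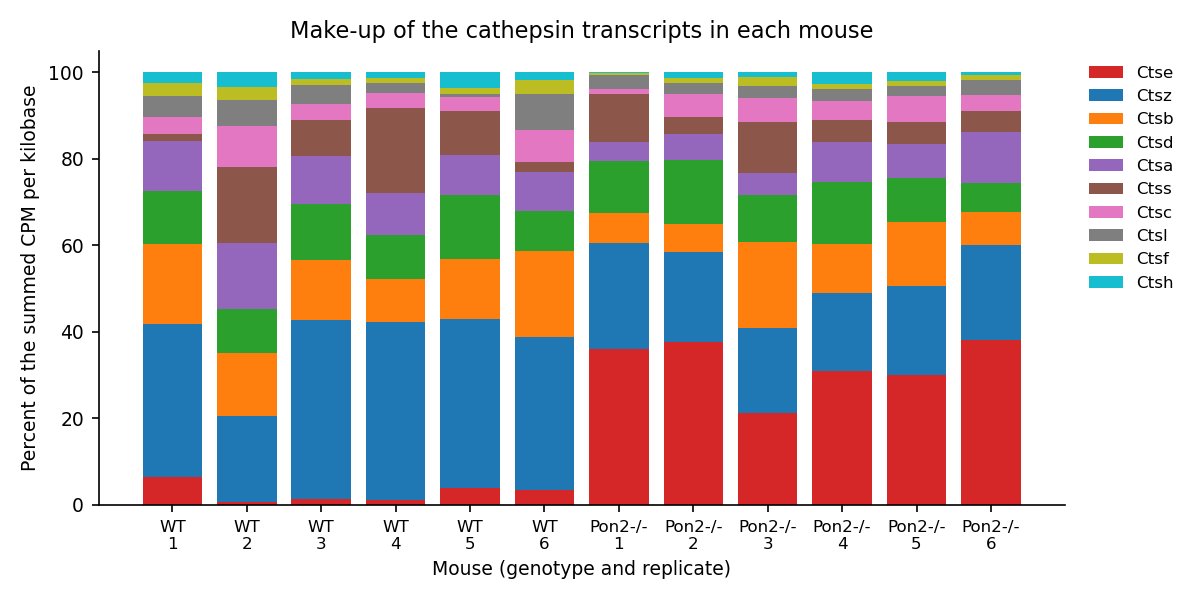
Share of each cathepsin gene in the summed CPM per kilobase of the 10 genes, 1 bar per mouse, WT on the left and Pon2-/- on the right. Ctse (red, at the base) takes 0.725% to 6.38% in the WT mice and 21.3% to 38.0% in the Pon2-/- mice.

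Genes around Ctse were compared to see whether the difference extended along the chromosome. Within 1 Mb of Ctse, 72 genes are annotated and 20 passed the filter. Of these 20, edgeR called 0, beside 0.203% of all tested genes, and 0 were at an unadjusted p under 0.05, beside 3.13%. At such shares 0 of 20 is common, so these counts do not show whether the difference is confined to Ctse. The median log2 fold change of the 20 was -0.09, with 8 positive and 12 negative. DESeq2, which also tested genes below the filter and called 1.77% of the genes it tested, called 1 neighbour, Gm37120, lower in Pon2-/- mice. Gm37120 had 584 counts in all over 4 WT mice and 0 in Pon2-/- mice (it was singled out after its values were seen). Fam72a, the nearest tested gene, was at 6.80 CPM in WT and 9.11 CPM in Pon2-/- mice (log2 fold change 0.42, SE 1.89). Srgap2, beyond it on the same side, was at 28.6 CPM in WT mice (-0.25, SE 0.54), and Slc41a1, a magnesium transporter and the nearest on the other side, at 5.83 CPM in WT and 21.7 CPM in Pon2-/- mice (1.90, SE 1.41). The SE of the low genes Fam72a and Slc41a1 was large, and Nucks1 and Rab29, which were better covered, had log2 fold changes of 0.13 (SE 0.34) and -0.41 (SE 0.35).

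**Figure D5:**
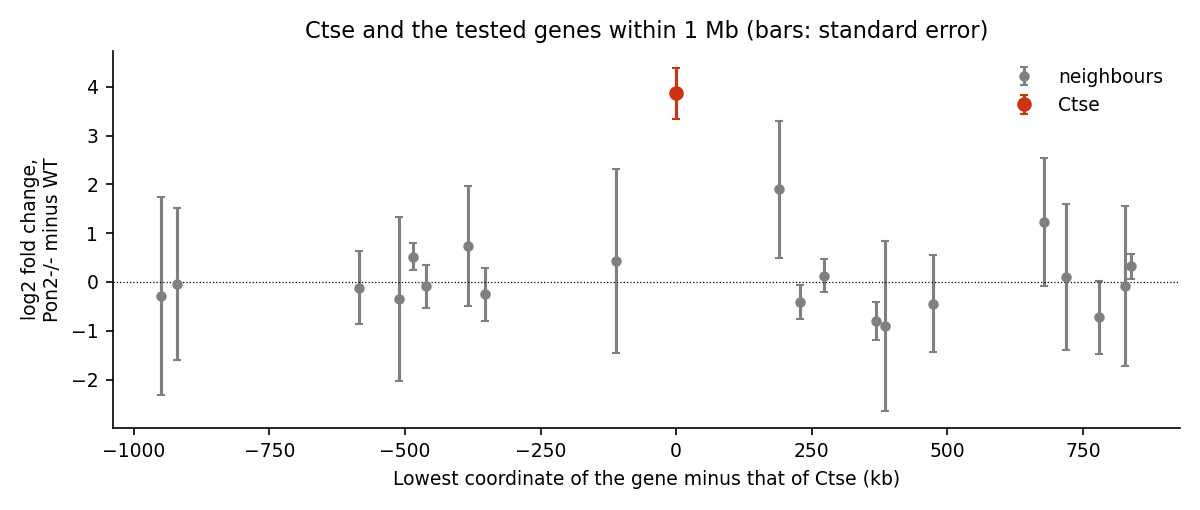
Log2 fold change, Pon2-/- minus WT, of Ctse (red) and of the 20 tested genes within 1 Mb (grey) against the distance of their lowest coordinates from that of Ctse in kilobases, with standard errors. Ctse lies at 3.86, and the highest neighbour, Slc41a1, lies at 1.90 with an SE of 1.41.

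Within 100 kb of the other 9 cathepsin genes edgeR and DESeq2 called no gene. At an unadjusted edgeR p under 0.05, where 3.13% of all tested genes lay, there was 1, Fdft1. Fdft1 encodes squalene synthase and shares exon bases with Ctsb. It was at 41.2 ± 21.7 CPM in WT and 18.1 ± 6.69 CPM in Pon2-/- mice (SD, n = 6), a log2 fold change of -1.19 (SE 0.50).

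Related genes were taken from lists. Over all tested genes edgeR called 0.203%, and 3.13% were at an unadjusted edgeR p under 0.05. DESeq2 called 1.77% of the genes it tested. Beside these shares, 0 or 1 call in a short list is not read as a result. Among 17 further cathepsin and aspartic protease genes, 6 had a count and 4 were tested, with 0 called by edgeR and 0 at an unadjusted p under 0.05. Besides Napsa, Ctso was at 140 ± 36.0 CPM in WT and 138 ± 47.3 CPM in Pon2-/- mice, and Ctsw at 32.6 ± 17.9 and 35.5 ± 14.5 CPM (SD, n = 6). DESeq2 called 1, Ctsg, the neutrophil granule protease cathepsin G, lower in Pon2-/- mice. It did not pass edgeR's filter, since its counts were 1645 in WT replicate 1, 269 in WT replicate 3 and 0 in the other 10 mice. Taking 3 counts, summed over all Pon2-/- mice, as the upper bound of a count of 0, the pooled count was at least 638-fold lower. Without WT replicate 1 it was at least 89.7-fold lower. These bounds are not scaled for depth and cover counting error only. Since Ctsg had counts in only 2 of 6 WT mice, they do not bound the difference between the genotypes.

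Granule proteases are activated by Ctsc. Of 6 listed, 2 were tested and edgeR called 0, with 0 at an unadjusted p under 0.05, while DESeq2 called 1, again Ctsg. Prtn3, proteinase 3, was at 314 ± 9.82 CPM in WT and 308 ± 65.7 CPM in Pon2-/- mice, and Prss57 at 22.7 ± 12.3 and 12.9 ± 17.8 CPM (SD, n = 6).

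Cathepsin inhibitors hold the proteases in check in the cytosol and outside the cell. Of 11 listed genes 6 were tested, edgeR and DESeq2 called 0 and none was at an unadjusted p under 0.05. The median log2 fold change was 0.01, with 4 positive and 2 negative. Serpina3g was at 1199 ± 285 CPM in WT and 1246 ± 353 CPM in Pon2-/- mice. Cst3, cystatin C, was at 570 ± 65.4 and 550 ± 94.8 CPM, and Cstb, cystatin B, at 109 ± 40.3 and 109 ± 11.9 CPM (SD, n = 6).

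Genes that process, sort or acidify followed. Of 23 listed, 21 were tested, edgeR and DESeq2 called 0 and none was at an unadjusted p under 0.05, and 12 of the 21 log2 fold changes were positive with a median of 0.16. M6pr, the cation-dependent mannose 6-phosphate receptor that carries new enzymes to the endosome, was at 257 ± 107 CPM in WT and 307 ± 124 CPM in Pon2-/- mice. Subunits that accompany the proton pump were at 207 ± 86.0 and 164 ± 89.7 CPM for Atp6ap2 and at 152 ± 45.7 and 170 ± 75.6 CPM for Atp6ap1 (SD, n = 6).

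Other lysosomal hydrolases numbered 29, of which 28 were tested. EdgeR and DESeq2 called 0, and 2 were at an unadjusted edgeR p under 0.05, beside 3.13% of all tested genes. One of them was Man2b1, a lysosomal mannosidase, at 102 ± 38.3 CPM in WT and 170 ± 71.0 CPM in Pon2-/- mice (log2 fold change 0.73, SE 0.31). The median of the list was -0.09 with 10 positive and 18 negative. By level, Hexa led the list with 144 ± 23.4 CPM in WT and 127 ± 45.0 CPM in Pon2-/- mice, and Ppt1 followed with 214 ± 23.0 and 191 ± 57.8 CPM and Fuca1 with 159 ± 66.4 and 161 ± 43.7 CPM (SD, n = 6, ordered per kilobase).

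Genes of the MHC class II pathway, whose invariant chain is cut by Ctss and other cathepsins, were all tested. Of the 9 genes edgeR and DESeq2 called 0 and 1 was at an unadjusted edgeR p under 0.05, beside 3.13% of all tested genes. All 9 log2 fold changes were positive, beside 49.2% of all tested genes, with a median of 0.57 beside -0.01. H2-DMb1, a chain of the peptide-loading chaperone, was at 89.0 ± 15.5 CPM in WT (64.7 to 107) and 132 ± 17.7 CPM in Pon2-/- mice (111 to 155). These ranges did not overlap, as for 0.388% of all tested genes with the higher range in Pon2-/- mice. The log2 fold change of H2-DMb1 was 0.57 (SE 0.17), below the threshold on the fold. Its adjusted p was 0.889 with edgeR and 0.00722 with DESeq2. Cd74, the invariant chain, was at 224 ± 127 CPM in WT and 358 ± 132 CPM in Pon2-/- mice (0.68, SE 0.33), H2-Ab1 at 246 ± 161 and 292 ± 131 CPM (0.25, SE 0.43) and H2-DMa at 266 ± 84.4 and 290 ± 112 CPM (0.13, SE 0.25; SD, n = 6). The dendritic cell marker sum, nearly all of it Bst2 and the class II gene H2-Aa, was 149 to 415 CPM in WT and 328 to 450 CPM in Pon2-/- mice, and the B cell marker sum had medians of 124 and 463 CPM, and their part in these values was not tested.

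The genes most like Ctse were found from Pearson correlations of log2 CPM over the 12 mice after the mean of each genotype was removed. The first 5 were Fzd3 (r = 0.88), Prr11 (0.85), Atp13a1 (0.85), Wdpcp (0.84) and Atg2b (0.83), out of 11847 genes and with 12 points. Picked as the highest of so many values, these 5 are not read as like Ctse beyond chance. Most are low, with means of 2.49 to 26.8 CPM in WT mice except for Atp13a1 with 85.3 CPM. Among the other cathepsins, Ctsz was closest to Ctse (r = 0.53, rank 526) and Ctss farthest (r = -0.68, rank 11688), and the other 7 lay between -0.37 and 0.32. For Ctss the value comes from the WT mice (r = -0.89 over 6 mice), while in Pon2-/- mice r was 0.21 over 6 mice, and these values are descriptions of the libraries.

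Promoters of lysosomal genes often carry the motif CACGTG within the longer site of the transcription factor TFEB. RefSeq promoter sequences (GRCm38.p6) were at hand for 7 of the 10 genes, with 8 promoters, and none was listed for Ctse, Ctsb and Ctsh. In the 250 bases before the start, CACGTG, which reads the same on both strands, occurred in 1 promoter each of Ctsa, Ctsd, Ctsf and Ctsl and in 6.02% of all 32851 promoters. The extended form TCACGTGA, which contains CACGTG, occurred for Ctsa and Ctsd and in 0.785% of all promoters. The pieces of the Ctsa promoter at chr2:164833733-164833772 on the plus strand, whose motif starts 13 bases before the start, and of the Ctsd promoter at chr7:142387892-142387953 on the minus strand, whose motif starts 99 bases before it, show this form in capitals. Ctsd and Ctsa had log2 fold changes of 0.34 and -0.26, and a match is a description only.
Ctsa: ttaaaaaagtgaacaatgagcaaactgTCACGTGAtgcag
Ctsd: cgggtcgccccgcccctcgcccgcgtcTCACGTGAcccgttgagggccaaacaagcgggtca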

How the data were processed

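The deposited files hold, for each mouse, whole-number counts of reads per gene without normalization, which the authors made by trimming reads with Trimmomatic 0.36, mapping them to GRCm38.p5 with STAR 2.5.3a and counting on GENCODE M12. Since Smart-seq2 libraries are unstranded, the single column was read as STAR's count without strand. Gene names, types, positions and exon lengths were taken from GENCODE M21 (49326 of 49585 genes matched), a later release, so levels per kilobase rest on its gene models. Groups and replicates came from the sample labels. That samples of a genotype are separate mice is as labelled.

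Counts were fitted in R 4.3.3 with edgeR 4.0.16 (TMM, filterByExpr, glmQLFit, glmQLFTest, genotype as the only term) over the 11848 genes that passed the filter. A gene counted as called when its p, adjusted by Benjamini and Hochberg, was under 0.05 and its log2 fold change exceeded 1 in size. Log2 CPM used a prior count of 2. The SE of a log2 fold change is its size divided by the square root of the quasi-likelihood F statistic. The ratio of a fold change to its SE therefore restates that test. The biological coefficient of variation was 99.2%. Alternatives were DESeq2 1.42.0, its size factors, no filter beyond 1 count, a replicate block, the ratio of mean CPM, other lengths or totals, leaving out each sample, and leaving out libraries rich in markers of other cells, the last added after seeing the data. When the fit was run on simulated counts with known changes, many of the changed genes were not called. A list or neighbourhood with 0 called genes can therefore still hold changed genes.

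The 10 cathepsin genes, the lists and the tests were chosen with earlier results of these data known. The genes named were the 10, Pon2, of each list the called genes and the 3 with the highest level per kilobase, neighbours within 1 Mb of Ctse, called genes within 100 kb of the others and the 5 genes most correlated with Ctse. Man2b1, H2-DMb1, Fdft1, Gm37120, Hbb-bt, Klf1 and Flt3 were named after their values were seen, and some genes of the lists are not reported by name here. Neither counts nor limits of 3 counts cover more than counting error, since amplified reads are not independent molecules.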

Additional observations from a re-analysis of the deposited data

Results flagged for a closer look

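Of 22 groups of 6 values, the 10 cathepsin genes and Pon2 in both genotypes, 3 held a sample far from the other 5 by Dixon's criterion, where chance marks about 1 in 20 groups. Ctsf was at 51.0 CPM in Pon2-/- replicate 3 and at 17.5 to 29.3 CPM in the other Pon2-/- mice, and this is the library with 10437 CPM of B cell markers. Ctsz was at 258 CPM in Pon2-/- replicate 1 and at 117 to 169 CPM in the others, and this library had the most neutrophil markers, the most Ctse and the lowest Ctsh. Pon2 was at 1.16 CPM in Pon2-/- replicate 5 and at 28.4 to 33.1 CPM in the others.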

How the results depend on the processing

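The log2 fold change of Ctse stayed positive in 18 of 18 alternatives, from 3.11 to 4.39, and 3.66 to 4.39 when 1 mouse was left out. Since Ctse was chosen on these samples, this range is a description. It was 3.11 without the 5 marker-rich libraries, where Ctse was not called and 4 genes were called in all, with 7 mice in the fit. The number of genes called, 24, was 8 without a filter, 304 with DESeq2 and 20 to 28 when 1 mouse was left out. With a replicate block 5 genes were called and the log2 fold change of Ctse was 4.21. Mice of the same number correlated at 0.000932 to 0.0430 after group means were removed and only replicate 2 correlated best with its own number, so the numbers were not taken as pairs. Further cathepsins and granule proteases each had 1 call with DESeq2, Ctsg. Pon2, at -2.13 and not called by edgeR (adjusted p = 0.586), was called with DESeq2 (-2.13, adjusted p = 0.0104) and by edgeR without Pon2-/- replicate 5 (-1.88, adjusted p = 0.0295), and leaving out 1 mouse gave -2.27 to -1.88. The WT rank of Ctse per kilobase among the 10 was 8, and it was 9 with the longest transcript and 8 to 10 when 1 mouse was left out, 10 without WT replicate 1. With that length the WT levels of Ctsa, Ctsc, Ctsf and Ctsh moved by more than 1 SD, to 58.6, 38.3, 22.6 and 15.3 CPM per kilobase. The signs of Ctsc, Ctss, Ctsl and Ctsa, which were not called, changed in at least 1 alternative. Ctsz stayed negative, from -0.59 to -0.29. It was lowest without the marker-rich libraries (SE 0.21), and at -0.55 (SE 0.20) without Pon2-/- replicate 1. Ctsb, from -0.60 to -0.01, was also lowest without the marker-rich libraries (SE 0.28). Ctsa, from -0.47 to 0.05, was lowest without Pon2-/- replicate 6 (SE 0.21). Relative to the SE, these low values were larger in size than any of the 9 genes without Ctse in the fit of all mice. Depth was at least 12967791 counts in each mouse, and the biological coefficient of variation of 99.2% is spread between libraries beyond the counting error of reads. In this spread, differences between mice and the sampling and amplification of few cells cannot be told apart.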
